A study of Mus musculus with 14 samples.

Results

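The regions described here are stretches of the mouse genome where ETS1 peaks were called in both libraries of wild-type (WT) Th1 cells and in neither library of Ets1-SE-KO (KO) Th1 cells. They were chosen by these calls: the peaks of the 4 ETS1 lists on chromosomes 1 to 19 and X were merged where they overlapped by 1 bp or more, which gave 54966 regions, and 618 of them (1.12%) had a peak in both WT and in no KO library. The opposite pattern, a peak in both KO and in no WT library, was found in 285 regions (0.519%). Since the calls chose the regions, the ETS1 values below are descriptions without a test, while H3K27ac, CTCF and position were not used in the choice.

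The KO cells were of the strain C57BL/6J-Ets1-SE-KO and the WT cells of the strain C57BL/6J. Naive CD4 T cells isolated from the spleen of both strains were activated with anti-CD3 and anti-CD28 and cultured towards Th1 for 6 days with IL-12 at 10 ng/mL and IL-2 at 1 ng/mL. CUT&RUN, in which an antibody-bound nuclease cuts out the DNA around its target, was run against ETS1, the active-chromatin mark H3K27ac and the architectural protein CTCF with 2 libraries per genotype, and with IgG as a control with 1 library per genotype. Per the titles the KO libraries were 2 biological replicates, whereas the WT libraries were technical replicates of 1 biological replicate, so that a spread over WT libraries is technical. The names of the CTCF lists number the WT samples differently from the titles, and the names of the H3K27ac and ETS1 lists of WT carry different numbers from each other. The position of the engineered change was not given in the sources used here.

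ETS1 belongs to the ETS family of transcription factors, which share a winged helix-turn-helix domain that contacts the core GGAA of their binding sites. It is abundant in resting lymphocytes, often binds beside RUNX1, and acts in T cells on the genes of the T cell receptor pathway and on Th1 cytokine genes. Many family members recognise nearly the same letters, and at gene starts several can occupy the same site.

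The sequence at the gene start is shown for 6 of the 47 regions that hold a listed start of a protein-coding gene, because these are the regions for which letters were at hand; the 6 were picked after their values were seen. H3K27ac was called in all 4 libraries at 5 of these regions and only in WT at Crmp1. The windows are RefSeq sequences of GRCm38.p6 from 250 bases before to 50 bases after the start, 300 bases long. Capitals mark the ETS core, GGAA or its reverse complement TTCC. The windows lie at chr1:58586147-58586446 on the plus strand for Ndufb3, a subunit of mitochondrial complex I, chr10:67185500-67185799 on the plus strand for Jmjd1c, of the histone demethylase family, and chr5:37245514-37245813 on the plus strand for Crmp1, a cytosolic phosphoprotein of semaphorin signalling. They lie at chr17:35194257-35194556 on the plus strand for Ltb, the lymphotoxin beta chain, chr1:193201497-193201796 on the minus strand for Traf3ip3, a TRAF3-interacting adaptor, and chr7:127042371-127042670 on the minus strand for Kif22, a chromosome-binding kinesin.
Ndufb3: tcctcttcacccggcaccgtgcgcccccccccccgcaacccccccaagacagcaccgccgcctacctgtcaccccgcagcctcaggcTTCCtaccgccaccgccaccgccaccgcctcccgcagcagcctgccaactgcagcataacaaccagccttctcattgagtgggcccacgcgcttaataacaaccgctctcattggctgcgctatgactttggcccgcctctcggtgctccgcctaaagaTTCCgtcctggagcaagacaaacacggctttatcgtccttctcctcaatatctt
Jmjd1c: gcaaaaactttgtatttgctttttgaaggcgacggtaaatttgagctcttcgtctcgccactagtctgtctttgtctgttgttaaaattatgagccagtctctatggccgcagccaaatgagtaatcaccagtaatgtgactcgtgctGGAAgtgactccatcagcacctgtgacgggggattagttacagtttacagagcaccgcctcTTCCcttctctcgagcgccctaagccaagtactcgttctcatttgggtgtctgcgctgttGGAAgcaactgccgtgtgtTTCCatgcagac
Crmp1: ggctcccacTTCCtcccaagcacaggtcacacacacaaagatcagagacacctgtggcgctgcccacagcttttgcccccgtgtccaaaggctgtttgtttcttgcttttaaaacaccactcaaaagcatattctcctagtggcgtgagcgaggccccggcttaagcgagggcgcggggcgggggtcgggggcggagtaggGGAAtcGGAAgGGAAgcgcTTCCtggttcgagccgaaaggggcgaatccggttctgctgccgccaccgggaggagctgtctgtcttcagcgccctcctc
Ltb: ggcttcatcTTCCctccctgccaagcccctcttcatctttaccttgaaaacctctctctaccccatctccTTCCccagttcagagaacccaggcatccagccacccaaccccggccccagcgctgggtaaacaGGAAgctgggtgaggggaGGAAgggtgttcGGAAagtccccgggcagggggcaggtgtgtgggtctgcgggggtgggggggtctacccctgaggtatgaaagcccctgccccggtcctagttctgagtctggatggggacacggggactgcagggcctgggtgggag
Traf3ip3: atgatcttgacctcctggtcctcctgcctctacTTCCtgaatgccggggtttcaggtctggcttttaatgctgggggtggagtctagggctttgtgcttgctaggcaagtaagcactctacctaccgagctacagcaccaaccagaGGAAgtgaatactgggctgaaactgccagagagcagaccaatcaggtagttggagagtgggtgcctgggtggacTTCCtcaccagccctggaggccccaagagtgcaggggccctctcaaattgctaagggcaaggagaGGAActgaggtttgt
Kif22: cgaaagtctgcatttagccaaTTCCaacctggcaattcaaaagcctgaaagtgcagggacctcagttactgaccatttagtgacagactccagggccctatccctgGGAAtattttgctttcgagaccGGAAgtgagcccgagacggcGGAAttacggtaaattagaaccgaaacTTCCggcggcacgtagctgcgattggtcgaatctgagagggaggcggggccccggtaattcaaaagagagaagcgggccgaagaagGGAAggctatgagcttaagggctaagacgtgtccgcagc
The Kif22 window held 2 matches to the longer ETS consensus CCGGAAGT, and the Traf3ip3 window held 3 matches to GGAAGT but none to the longer consensus. The Ndufb3 and Ltb windows held GGAA without either of these extensions. The Ndufb3 region, chr1:58586363-58586725, also overlapped start windows of Fam126b, with 1 and 0 matches to GGAAGT. The windows shown reach beyond the regions, as at Traf3ip3, whose region ends at chr1:193201581. A match in a window can thus lie outside the region.

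Motifs were counted on both strands in the windows that overlapped a region by 1 base or more, 74 windows of 70 genes, beside all 21045 RefSeq windows used. The start itself lay inside the region for 51 of the 74 windows, and a counted motif can lie outside the region. GGAA was found in 100% of the 74 windows and in 95.7% of all windows, which are close. GGAAGT, which contains GGAA, was in 41.9% of the 74 windows, against 30.95% of 6168 windows that overlapped regions called in all 4 ETS1 libraries and 24.97% of all windows. CCGGAAGT, which contains GGAAGT, was in 5.41% of the 74 windows (4 windows), against 11.0% of windows at regions called in all 4 libraries and 5.20% of all windows. The RUNX motif TGTGGT was in 10.8%, against 10.6% in regions called in all 4 libraries and 14.7% of all windows. The AP-1 motif TGANTCA was in 6.76%, against 3.55% and 7.04% in the same 2 sets. The GC box GGGCGG was in 52.7%, against 73.0% in regions called in all 4 libraries and 46.7% of all windows, and the mean GC content was 56.8%, 63.3% and 56.4% in these 3 sets. In the 51 windows whose start was inside, GGAAGT was in 37.3% and CCGGAAGT in 3.92%, against 31.1% and 11.1% of the 5945 such windows of regions called in all 4 libraries. These are descriptions over few windows. Regions away from gene starts were not searched.

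The 4 ETS1 lists differed widely in length, and not by genotype. On chromosomes 1 to 19 and X the KO lists held 40705 and 9344 ETS1 peaks, and the WT lists 14013 and 23416. KO replicate 1 was thus the longest list and KO replicate 2 the shortest, with both WT lists between them. The IgG lists held 285 peaks in KO and 2 in WT, and 4 of the 618 regions overlapped an IgG peak of KO and none an IgG peak of WT. Without read counts the depth is unknown, and a missing peak is a missing call, not a measured absence of ETS1. As a check of the cell type, 6 of 8 Th1 and T cell markers, among them Cd4 and Tbx21, had H3K27ac in all 4 libraries, while Ifng and Cxcr3 had none in any library. The summed H3K27ac length at the 8 markers was 36.6 and 30.2 kb in KO and 21.0 and 22.3 kb in WT. This difference was carried by Il12rb2, the signalling chain of the IL-12 receptor, with 18703 and 12338 bp in KO, against 3761 and 5084 bp in WT, and the other 7 markers summed to 17.9 and 17.8 kb in KO, against 17.2 and 17.2 kb in WT. Of the markers of B, myeloid, CD8 T and NK, and erythroid cells, Ebf1, Csf1r and Klf1 alone had H3K27ac in all 4 libraries, and none of the 5 non-haematopoietic markers had any.

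The regions were low in the WT lists that called them. The authors' fold enrichment over background had a median of 3.44 in WT replicate 1, with a range of 2.56 to 5.89, and a median of 3.45 in WT replicate 2, with a range of 2.07 to 7.02. When each peak was given the percentile rank of its score within its own list, with 100 for the best peak, the median rank of the regions was 33.0 in WT replicate 1 and 44.9 in WT replicate 2. In the weaker of the 2 lists, a minimum that lies low by construction, it was 24.7, with a lowest value of 0.132 and a highest of 89.6. The same median was 39.3 for the 2200 regions called in both WT and 1 KO library and 68.8 for the 6533 regions called in all 4 libraries. The median fold enrichments in WT were 3.46 and 3.53 for the regions called in both WT and 1 KO library, close to those of the regions called only in WT, and 3.91 and 4.14 for the regions called in all 4. In 519 of the 618 regions (84.0%) at least 1 of the WT peaks was below the median of its list, and 0 regions were in the upper 10% of both lists. The weaker WT rank was at or below 50 in 63.6% of regions called in both WT and 1 KO library and in 24.9% of regions called in all 4. Pearson's r between the ranks in the 2 WT lists was 0.31 over the 618 regions (Spearman's rho 0.30) and 0.57 over the regions called in all 4 libraries (rho 0.65). The points are regions of the same libraries and are no replicates.

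**Figure D1:**
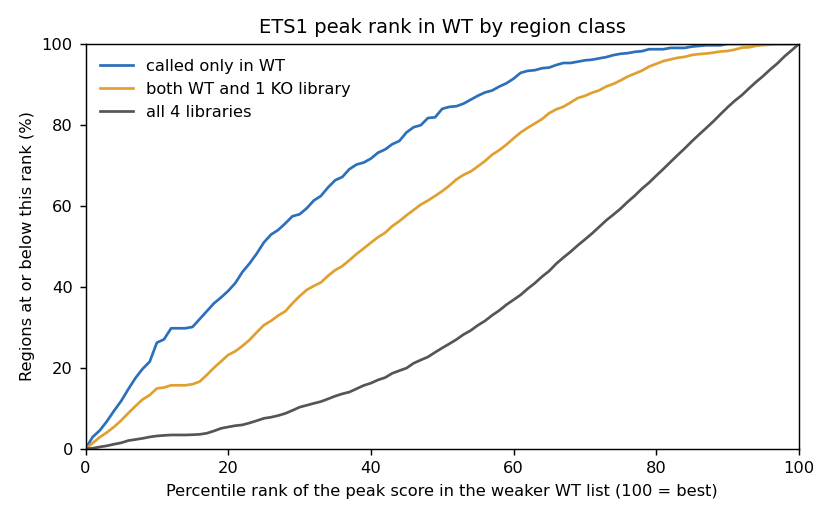
Cumulative percentage of regions (vertical axis) at or below a percentile rank of the ETS1 peak score in the weaker WT list (horizontal axis, 100 for the best peak), for the 618 regions called only in WT, 2200 called in both WT and 1 KO library and 6533 called in all 4. The curve of the regions called only in WT lies leftmost, with a median of 24.7 against 39.3 and 68.8.

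Most regions were not at gene starts. Within 2 kb of a gene start lay 142 of them, 22.98% with an exact Clopper-Pearson 95% interval of 19.7% to 26.5% that covers counting error only. Another 281 (45.5%) were elsewhere in a gene and 195 (31.6%) between genes. The share at gene starts was 60.1% for regions called in both WT and 1 KO library, 87.2% for regions called in all 4 libraries, 40.7% for regions called only in KO and 26.8% over all ETS1 regions. The median distance to the nearest start, or gene end where no start is listed, was 12190 bp, against 517.5 bp for regions called in both WT and 1 KO library and 216 bp for regions called in all 4. It was 5452 bp for regions called only in KO. The regions were 483 bp wide at the median, against 779 bp for regions called in both WT and 1 KO library and 1091 bp for regions called in all 4. The median width was 458 bp for regions called only in KO and 282 bp over all ETS1 regions.

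The classes were also set side by side within bands of the weaker WT rank, each 25 wide. Inside a band the ranks of the classes can still differ. Among regions whose weaker WT rank was 0 to 25, the share at gene starts was 20% of 315 regions called only in WT, 53.1% of 671 called in both WT and 1 KO library and 76.0% of 491 called in all 4. At ranks from 50 to 75 these shares were 26.2% of 84, 65.4% of 602 and 86.5% of 2248. At ranks from 75 to 100 only 15 regions were left among those called only in WT, with 26.7% at gene starts, against 69.2% and 93.2%. No test was made between classes that the ETS1 calls define.

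Which regions were called only in WT depended on how many peaks each list held. With the same number of best peaks in each ETS1 list, 9344, there were 401 such regions. They overlapped 127 of the 618 (20.6%), and 43.1% of them were at gene starts. Without KO replicate 1, the longest list, 2648 regions met the rule, with 53.4% at gene starts. Without WT replicate 1 there were 9916, with 12.7% at gene starts, and without WT replicate 2 there were 4240, with 12.3% at gene starts. Without KO replicate 2, the shortest list, there were 778, with 24.8% at gene starts, close to the share of the 618. The share at gene starts therefore moved with the lists used, except when KO replicate 2 was left out.

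ETS1 peaks of KO lay within 10 kb of most regions, a share given here without a background. The gap from a region to the nearest ETS1 peak of either KO library ranged from 5 to 798907 bp with a median of 6691 bp. It was up to 500 bp for 34 regions, up to 1 kb for 85 (13.8%) and up to 10 kb for 372 (60.2%). A region called in all 4 libraries lay within 10 kb of 17.5% of the regions called only in WT. The same share was 15.5% for regions called in both WT and 1 KO library and 13.3% for regions called only in KO. Just inside the rule, a region at chr12:82283965-82284779 had a KO peak 5 bp away. Just outside it, a region at chr11:19829643-19830479 was left out by an overlap of 2 bp between a KO and a WT peak. A region of 675 bp at the start of Foxp1, a forkhead factor that keeps T cells quiescent, had a KO peak 69 bp away.

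**Figure D2:**
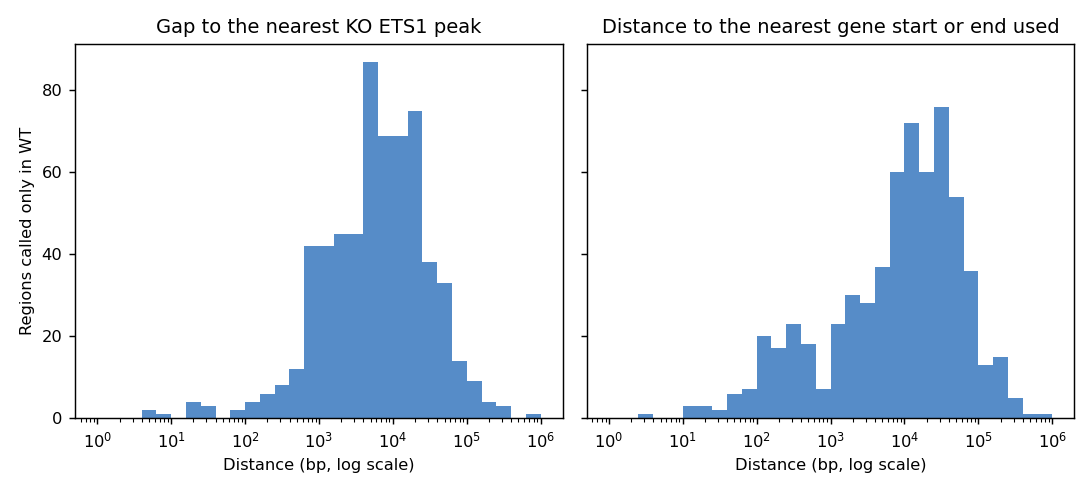
Number of regions called only in WT (vertical axis) by the gap to the nearest ETS1 peak of a KO library (left) and by the distance to the nearest gene start, or gene end where no start is listed (right), both in bp on log scales. The gap has a median of 6691 bp, and a smaller group of regions in the right panel lies below 1 kb of a start.

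H3K27ac, which marks active promoters and enhancers, was called at 51.8% to 54.9% of the regions in each of its 4 libraries. A peak was present at 54.4% and 54.9% of the 618 regions in KO, against 52.9% and 51.8% in WT. Both KO libraries were above both WT libraries, with means of 54.6 ± 0.343% in KO and 52.3 ± 0.801% in WT (SD over 2 libraries each) and a difference of 2.27 percentage points. The difference was 2.00 percentage points at regions called in all 4 ETS1 libraries and 2.23 over all ETS1 regions, close to that of the regions called only in WT. It was larger, 3.68 percentage points, at regions called in both WT and 1 KO library and 6.84 at regions called only in KO. The exact two-sided permutation test over libraries gave p = 0.333, the smallest it allows with 2 against 2. By the titles WT has 1 biological replicate, so the test and the SD of WT, here and for CTCF, compare libraries and not animals. When all H3K27ac lists were reduced to the same number of best peaks, the difference turned to -2.10 percentage points, so its direction depends on the number of H3K27ac peaks called. The covered length of H3K27ac in the regions with flanks of 1 kb was 370 and 364 kb in KO, against 331 and 312 kb in WT, a log2 ratio of KO over WT of 0.19 (exact permutation p = 0.333). The same ratio was 0.21 for regions called in both WT and 1 KO library and 0.23 for regions called in all 4 ETS1 libraries. It was 0.51 for regions called only in KO and 0.26 over all ETS1 regions. The whole length of all H3K27ac peaks gave a ratio of 0.39. That is an unlike measure, as peaks are there not cut at the flanks of a region. The KO lists of H3K27ac were longer throughout the genome, and the ratio at the regions was the lowest of these classes, though close to 0.21 and 0.23.

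Region by region, H3K27ac was called in all 4 libraries at 244 of the 618 regions (39.5%) and in none at 199 (32.2%), against 25.1% and 62.3% of all ETS1 regions. The shares were close to these members at regions called only in KO, 41.1% and 31.9%. Of all 54966 ETS1 regions, 26303 were called in KO replicate 1 alone. H3K27ac was called in both WT and no KO library at 20 regions (3.24%), against a background of 0.742% over all ETS1 regions, and in both KO and no WT library at 22 regions (3.56%), against a background of 1.76%. Of the 419 regions with an H3K27ac peak in any library, these are 4.77% and 5.25%, against 1.97% and 4.67% of all ETS1 regions with one. Among the 6533 regions called in all 4 ETS1 libraries these counts were 9 and 69. With equal numbers of ETS1 peaks per list, 9 of the 401 regions had H3K27ac only in WT. The covered length with flanks was higher in both KO than in both WT libraries at 148 regions (23.9%), with a background of 16.2%, and higher in both WT than in both KO libraries at 74 regions (12.0%), with a background of 3.37%. Over the 428 regions with any H3K27ac within 1 kb, the shares were 34.6% higher in KO and 17.3% higher in WT, against backgrounds of 39.3% and 8.18%. The share with longer H3K27ac in WT was thus above its background on both counts, and the share with longer H3K27ac in KO was above it on the first and below it on the second.

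CTCF, which anchors chromatin loops, was called at more regions in both KO libraries than in either WT library. A CTCF peak was present at 53.9% and 49.5% of the regions in KO, against 40.1% and 40.3% in WT. The means were 51.7 ± 3.09% in KO and 40.2 ± 0.114% in WT (SD over 2 libraries each), a difference of 11.5 percentage points (exact two-sided permutation p = 0.333, the smallest possible). The KO lists of CTCF were longer, with 40487 and 39340 peaks, against 33133 and 31364 in WT. With the best 31364 peaks of each list, an alternative added after the data were seen, the shares were 36.1% and 36.2% in KO, against 37.1% and 40.3% in WT, and the difference turned to -2.51 percentage points. The direction thus depends on the number of CTCF peaks called. The difference was 12.3 percentage points at regions called in all 4 ETS1 libraries and 7.26 over all ETS1 regions. CTCF was in both KO and no WT library at 33 regions (5.34%), against a background of 3.86%, and in both WT and no KO library at 9, 1.46%, against a background of 0.162%. Of the 397 regions with a CTCF peak in any library these are 8.31% and 2.27%, against 10.2% and 0.428% of all ETS1 regions with one. Neither H3K27ac nor CTCF was called in any library at 98 regions (15.9%), against 2.86% of regions called in both WT and 1 KO library, 0.413% of regions called in all 4, 12.6% of regions called only in KO and 52.3% of all ETS1 regions.

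**Figure D3:**
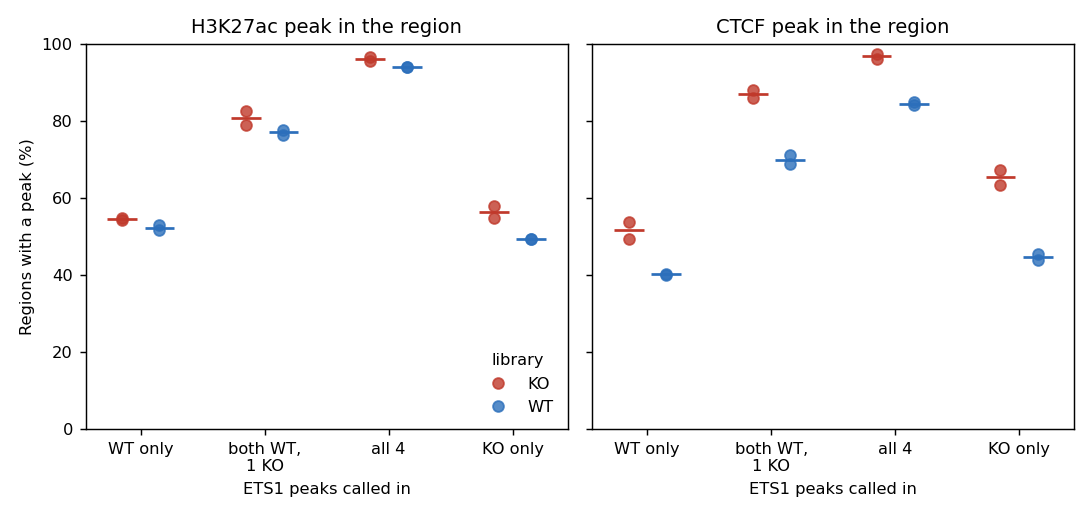
Percentage of regions with a peak of H3K27ac (left) or CTCF (right) in each library (points, KO left of WT) for 4 classes of ETS1 region, with bars at the mean of 2 libraries. At the regions called only in WT, H3K27ac was between 51.8% and 54.9% in all 4 libraries, and CTCF was at 53.9% and 49.5% in KO, against 40.1% and 40.3% in WT, with all peaks of each list counted.

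At Ets1 itself (chr9:32636241-32757820 in GRCm38), which encodes the factor and gives the KO strain its name, 2 regions were called only in WT, both inside the gene. The table of genes used has no exons, so whether they are exonic is not given here. The first, chr9:32744830-32745679, had fold enrichments of 2.57 and 2.56 in WT and ranks of only 0.464 and 18.4. Its H3K27ac length with flanks was 1967 and 1958 bp in KO, against 2787 and 2789 bp in WT, without overlap. The second, chr9:32750074-32750555, had fold enrichments of 3.32 and 2.71 and ranks of 62.6 and 7.44. Its H3K27ac length was 0 and 0 bp in KO, against 532 and 1045 bp in WT.

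The second region lay at the edge of a stretch without KO peaks. From chr9:32746522 to chr9:32940318, which is 193797 bp, no KO library of ETS1, H3K27ac, CTCF or IgG had a peak. Wholly inside it, the WT libraries had 10 and 11 H3K27ac peaks, 3 and 1 CTCF peaks, and 1 and 6 ETS1 peaks. Peaks absent because the DNA is missing and peaks absent because the factor is cannot be told apart there. Further ETS1 regions at Ets1 were called in WT replicate 2 alone and so were not among the 618, including 4 between chr9:32906553 and chr9:32926489, where H3K27ac was called in both WT and in neither KO library. St14, a membrane serine protease gene also on chromosome 9, had a region with H3K27ac in no library.

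**Figure D4:**
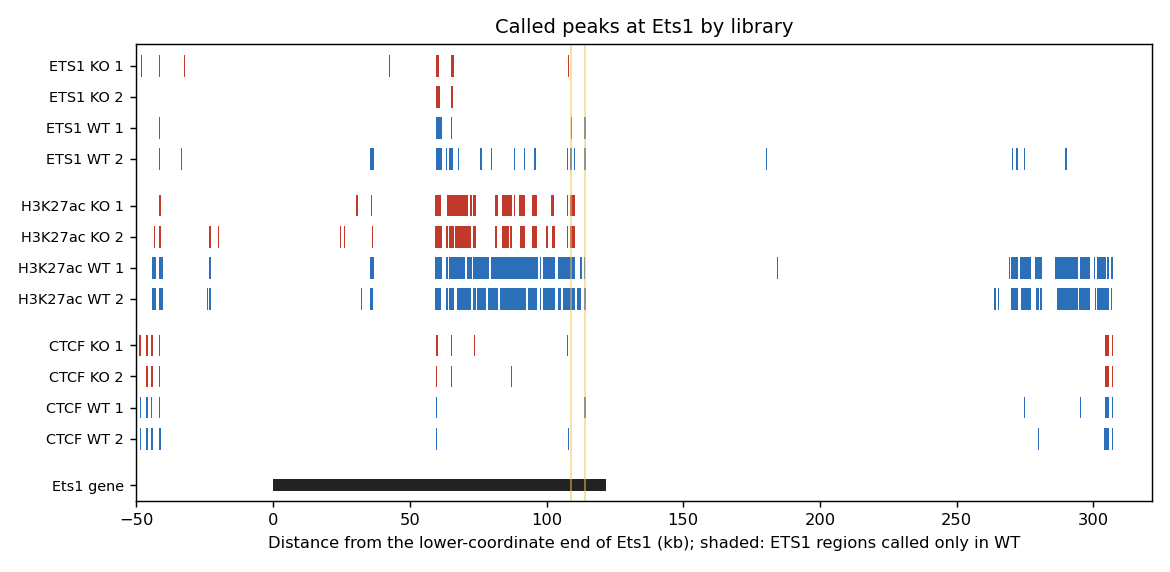
Called peaks (bars) of ETS1, H3K27ac and CTCF at Ets1, 1 row per library with KO above WT within each antibody, by distance in kb from the lower-coordinate end of the gene (black bar). The 2 shaded regions were called for ETS1 only in WT, and no KO library has a peak in the 193797 bp that hold the second of them.

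The best-ranked regions were narrow and lay at genes of varied functions. By rank in the weaker WT list the first 10 were in Ctif, a factor of cap-dependent translation, at the start of Ndufb3, near Ptbp1, a splicing regulator, at Prkacb, a catalytic subunit of protein kinase A, in Tnrc6a, a scaffold of microRNA silencing, and 13477 bp from Il12a, a subunit of IL-12. The others were near Sema4d, a semaphorin of lymphocytes, at the start of Zfp418, and in Mtmr6, a lipid phosphatase, and Por, the electron donor of cytochromes P450. Their widths ranged from 167 to 617 bp with a median of 213 bp, narrower than the median of 483 bp over all 618. H3K27ac was called in all 4 libraries at 6 of the 10 and in none at 2. At Prkacb the ETS1 fold enrichments were 4.97 and 6.73 in WT, and CTCF was called in all 4 libraries there. The H3K27ac length at Prkacb was 233 and 231 bp in KO, against 566 and 279 bp in WT.

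Regions that had H3K27ac in both WT and in neither KO library lay inside genes in 11 of 20 cases, and 5 of the 20 had CTCF in all 4 libraries. Over all 618 regions, 45.5% lay inside genes away from starts and 28.5% had CTCF in all 4 libraries, which is close. The best-ranked of the 20 was in Dusp7, a phosphatase of MAP kinases, with an H3K27ac length of 0 and 0 bp in KO, against 1330 and 1399 bp in WT. At the start of Igsf23, an immunoglobulin superfamily gene, it was 0 and 0 bp in KO, against 1978 and 1200 bp in WT. At the start of Ada, adenosine deaminase, it was 0 and 0 bp in KO, against 284 and 225 bp in WT. Others lay near Dennd2d, Klhl3, Sytl2, Pemt, Sohlh1, Gdpd5 and Crmp1, whose start sequence is shown above. With H3K27ac in both KO and in neither WT library, the best-ranked regions lay in Map4k4, a kinase of stress signalling, with 508 and 245 bp in KO, against 0 and 0 bp in WT, and at Man2b1, a lysosomal mannosidase, near Map3k7cl and in Clec2g. The separation of the genotypes at both sets follows from the calls that chose them.

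Across the genome, 602 of 21631 protein-coding genes (2.78%) had a region within 10 kb. Map4k4, Ccdc88c, Itpk1, Ece1, Ppp1r16b and Tg, the thyroglobulin gene, each had 3, and 22 genes had 2. At Ppp1r16b, a regulatory subunit of protein phosphatase 1, all 3 regions had H3K27ac in all 4 libraries, with lengths at the first of them of 1930 and 1613 bp in KO, against 2053 and 2034 bp in WT. The regions of Tg included one in the overlapping gene Sla, an adaptor that dampens T cell receptor signalling, with H3K27ac of 1635 and 1829 bp in KO, against 673 and 401 bp in WT.

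Of 255 genes in 16 lists of T cell and control genes, 26 had a region within 10 kb, beside the 2.78% of all protein-coding genes given above. T cell receptor signalling had 6 of 23 genes (26.1%), among them the coreceptor Cd4, the kinases Lck and Fyn, the exchange factor Vav1 and Cd2. Naive and memory T cell genes had 4 of 11, namely the homing receptor Ccr7 and the transcription factors Lef1, Foxo1 and Foxp1. Th1 genes had 4 of 29, among them Stat4, a transducer of IL-12 signals, Eomes and Tnf. Activation factors had 1 of 23, Myc, while 0 of the Th2 genes, of the Th17, Treg and Tfh genes, and of the B cell, myeloid, erythroid and non-haematopoietic markers had one. Control lists were not all at 0, as 2 of 18 housekeeping genes (11.1%) and 1 of 10 CD8 T and NK markers (10%) had a region, beside 13.8% of the Th1 genes. The lists differ in how many ETS1 regions of any class they hold, and no list was tested against another. Regions called only in WT were 6 of 181 ETS1 regions at the T cell receptor signalling genes and 2 of 52 at the housekeeping genes. The share over all ETS1 regions was 618 of 54966 (1.12%). The counts were 5 of 116 at the naive and memory T cell genes, 4 of 89 at the Th1 genes and 0 of 26 at the non-haematopoietic markers. They were 3 of 123 at the genes of cytokine receptors, JAKs and STATs, and 3 of 124 at the ETS family genes. Activation factors had 1 of 151, Th2 genes 0 of 53, and Th17, Treg and Tfh genes 0 of 68. At Cd2, an adhesion receptor of T cells, H3K27ac length was 3311 and 3311 bp in KO, against 2609 and 2171 bp in WT. At Cd4 it was 2753 and 2896 bp in KO, against 2624 and 2650 bp in WT. Both regions had longer H3K27ac in both KO libraries, an order found at 39.3% of all ETS1 regions with H3K27ac within 1 kb.

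Of the 28 regions at these genes, 12 had longer H3K27ac in both KO libraries, 4 in both WT libraries, 8 overlapped and 4 had none within 1 kb. The backgrounds over ETS1 regions with H3K27ac within 1 kb are the 39.3% and 8.18% given above, and 24 of the 28 had it. The 4 with longer H3K27ac in WT were both regions of Ets1, one at Etv6, an ETS family repressor, and one at Crtam, an adhesion receptor of cytotoxic cells. At Etv6 the lengths were 656 and 598 bp in KO, against 1624 and 1460 bp in WT. At Crtam they were 0 and 0 bp in KO, against 239 and 299 bp in WT. At Runx1, whose protein is a partner of ETS1, they were 793 and 1222 bp in KO, against 484 and 483 bp in WT. At the second Foxp1 region, the start of the gene, they were 1636 and 1732 bp in KO, against 843 and 909 bp in WT.

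Other regions at these genes showed no separation or no mark. At Stat5b, a transducer of IL-2 signals, the lengths were 1095 and 1206 bp in KO, against 1216 and 1084 bp in WT, and at Ikzf1, the Ikaros gene, all 4 libraries had 2876 bp, the whole window. At Ltb, next to Tnf, they were 2922 and 2922 bp in KO, against 2308 and 2922 bp in WT. Regions at Myc, Foxo1, Eomes and St14 had no H3K27ac within 1 kb in any library. The ETS1 fold enrichments at Eomes, a T-box factor, were 2.78 and 2.95 in WT, and CTCF was called there in all 4 libraries.

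**Figure D5:**
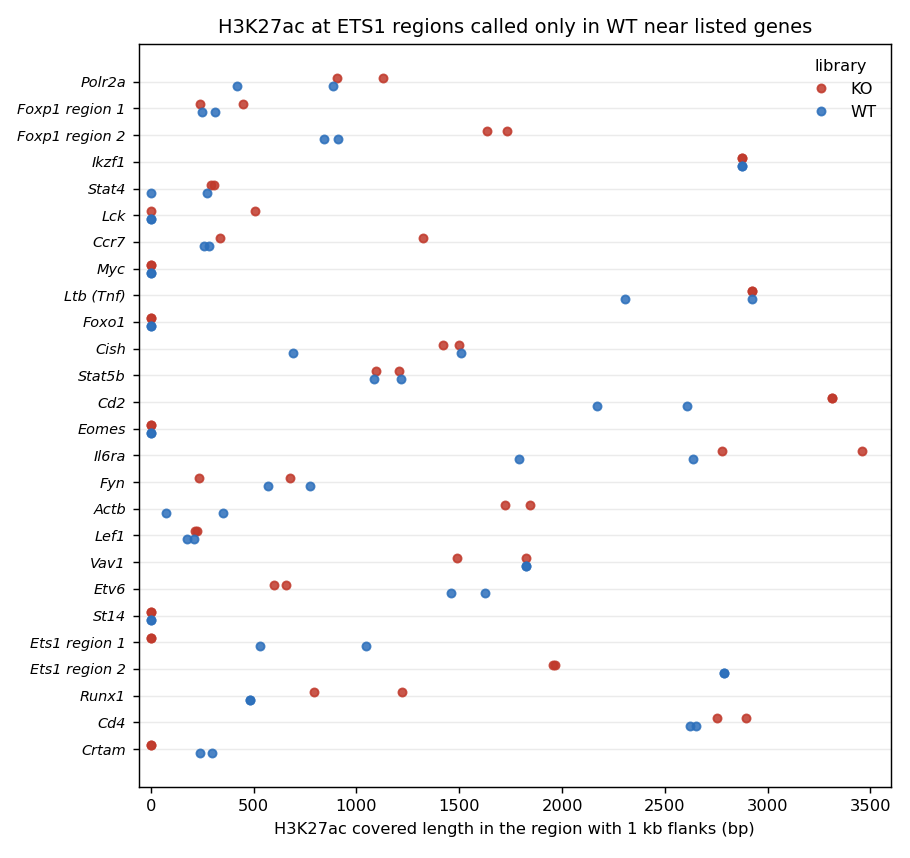
H3K27ac covered length in bp (horizontal axis) in the region with 1 kb flanks, 1 row for each of 26 of the 28 regions called only in WT near genes of the lists (the other 2 are not drawn), with a point per library (KO above WT in each row). Genes are in order of their best weaker WT rank, with regions of the same gene kept together. The Ets1 region with 0 bp in KO is thus numbered first. Both KO points lie right of both WT points in 10 of these regions, and both WT points right of both KO points in 4, at Etv6, Crtam and both Ets1 regions.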

How the data were processed

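CUT&RUN peak lists of 14 libraries were analysed, with groups taken from the titles. Per the submitters' processing notes BWA was used with build GRCm38, and peak names in the lists follow MACS2. Each list belongs to 1 library, and its 9 columns have no header. The authors' score is a whole number, the deposited fold is a ratio of enrichment, and the authors' last columns hold −log10 p and −log10 q. These values describe and rank peaks within a list. Calling options, filters and any control library were not given in the sources used here. Depth is unknown, so list length may follow depth as well as occupancy.

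Peaks were merged by overlap of at least 1 bp with Python 3.11.15, NumPy 2.4.6 and SciPy 1.17.1. Covered length is the sequence under peaks within a region plus 1 kb on each side. Genes were protein-coding genes of RefSeq GRCm38.p6 (21631), and a start was a listed one for 17274 genes and otherwise either gene end. The planned motif search was made only in RefSeq start windows, as no genome was used. Code was tested on simulated lists. Regions and lists were chosen with earlier results of these data known. Named by rule were the 10 best-ranked regions by their weaker WT list, up to 10 with H3K27ac only in WT and 5 only in KO, 5 with CTCF in all 4 libraries, 10 holding a gene start, genes with most regions, and list genes with a region within 10 kb, of which the text gives a part. Some items are not reported here but were counted. Alternatives are given at the end.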

Additional observations from a re-analysis of the deposited data

How the results depend on the processing

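Reducing each ETS1 list to its best 9344 peaks gave 401 regions, of which 9 had H3K27ac only in WT. The KO minus WT difference in share with a peak was then 3.37 percentage points for H3K27ac and 17.1 for CTCF, and 43.1% were at gene starts. The upper 50% of each ETS1 list gave 255 regions, 5 with H3K27ac only in WT, differences of 4.90 for H3K27ac and 17.3 for CTCF, 40.4% at gene starts and a log2 ratio of H3K27ac length of 0.14. Merging across gaps of 500 bp or asking for 50% overlap gave 661 and 676 regions. Equal numbers of H3K27ac peaks gave a log2 ratio of 0.14 and reversed the H3K27ac share difference to -2.10, and equal numbers of CTCF peaks, also added after seeing the data, reversed the CTCF share difference to -2.51. Without flanks the log2 ratio was 0.093. The share at starts was 17.3% within 1 kb and 17.8% with only listed starts, an alternative chosen after seeing the data. Leaving out 1 library gave 778 to 9916 regions, 23 to 163 with H3K27ac only in WT, log2 ratios of 0.15 to 0.24, differences of 1.44 to 3.51 for H3K27ac and 4.68 to 15.9 for CTCF, and 12.3% to 53.4% at gene starts. The cause of these shifts was not tested, beyond fewer libraries having to lack or hold a peak. No paired analysis was possible because replicate numbers count technical repeats of 1 biological replicate in WT but separate biological replicates in KO, so equal numbers share nothing.

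With 2 libraries a group no permutation test can reach p under 0.333. By the titles the WT libraries of an antibody share 1 biological replicate, which the numbers in the list names do not bear out for CTCF.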
